A study of Homo sapiens with 6 samples.

Results

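The EPB41 family encodes the protein 4.1 proteins, and 7 of its genes were examined here among the 58243 genes counted in each library: EPB41, EPB41L1, EPB41L2, EPB41L3, EPB41L4A, EPB41L4B and EPB41L5. They were listed by symbol, and each symbol was matched to 1 Ensembl identifier. EPB41L3 drew attention to the family because it was selected on its own rise in the comparison used here, so its values are given as a description without a test, whereas the other 6 genes were taken because they belong to the same family. The question was how the rise of EPB41L3 compared with its relatives, and with other genes of similar length. All 7 genes passed the filter on low counts.

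Newly made RNA was sequenced after 4sU labelling (4sU-seq) in A375 cells, an established human melanoma line, with 3 libraries in each of 2 groups. EV cells (libraries B1, B2 and B3) carried the empty vector, and PRL3 cells (B9, B10 and B11) expressed human PRL3 with an HA tag, the phosphatase encoded by PTP4A3. Both lines were stably transfected, both were kept in hygromycin B, and both received 500 µM 4-thiouridine for 20 min before RNA isolation. The sources used here do not say whether each line was a clone or a pool, or whether the libraries of a group came from separate cultures, so p-values measure the spread between these libraries, which may be technical.

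Proteins of this family carry a FERM domain, a fold that binds the cytoplasmic tails of membrane proteins. In EPB41 and its close relatives EPB41L1, EPB41L2 and EPB41L3, a further domain binds spectrin and actin, so that these proteins tie receptors, channels and adhesion molecules to the membrane skeleton. EPB41L3, also called DAL-1, is known as a candidate tumour suppressor that is lost in many lung cancers and meningiomas, and its partners include the adhesion molecule CADM1 and the methyltransferases PRMT3 and PRMT5. EPB41L4A, EPB41L4B and EPB41L5 lack the spectrin-actin binding domain, and EPB41L5 takes part in cell polarity and in the loss of epithelial adhesion.

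The 4 RefSeq starts of EPB41L3 are spread along the gene on the minus strand of chromosome 18, and the counts per gene do not tell which start was used. RefSeq promoters (GRCh38.p14, 250 bases before each start) were found for 6 of the 7 genes, with 15 starts in all, and EPB41L4B had no entry. The first and second starts of EPB41L3 held 25 and 23 CG dinucleotides, at percentiles 78.4 and 74.2 of 35116 promoters of this length (median 11). Its other starts held 4 and 2. The sequences of these CG-rich starts are shown next to the first start of EPB41L2, the family gene with the highest level, whose 35 CG dinucleotides lie at percentile 94.2. Each is printed 5′ to 3′ on the minus strand, with every CG dinucleotide in capitals, and covers chr18:5628992-5629241, chr18:5543998-5544247 and chr6:131063246-131063495.
EPB41L3, first start: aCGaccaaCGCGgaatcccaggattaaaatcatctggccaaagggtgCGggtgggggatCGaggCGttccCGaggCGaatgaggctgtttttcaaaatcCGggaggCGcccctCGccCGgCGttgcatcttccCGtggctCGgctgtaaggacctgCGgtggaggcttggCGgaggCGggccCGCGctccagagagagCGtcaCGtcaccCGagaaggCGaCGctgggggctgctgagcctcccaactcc
EPB41L3, second start: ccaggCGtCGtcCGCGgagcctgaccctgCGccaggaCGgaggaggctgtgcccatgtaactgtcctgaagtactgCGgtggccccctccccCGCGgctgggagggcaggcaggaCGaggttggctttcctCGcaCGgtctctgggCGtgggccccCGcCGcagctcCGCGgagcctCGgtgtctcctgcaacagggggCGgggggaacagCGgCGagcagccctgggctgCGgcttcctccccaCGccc
EPB41L2, first start: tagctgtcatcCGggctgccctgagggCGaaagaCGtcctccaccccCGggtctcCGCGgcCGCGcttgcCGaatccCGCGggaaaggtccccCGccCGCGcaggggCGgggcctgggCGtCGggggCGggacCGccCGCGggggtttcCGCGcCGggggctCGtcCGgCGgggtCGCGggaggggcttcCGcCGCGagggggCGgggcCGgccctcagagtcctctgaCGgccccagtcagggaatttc
All 3 windows are rich in G and C, at 65.2%, 73.2% and 77.6% of bases. Of 5 motifs searched on both strands, GGGCGG occurred 5 times in the EPB41L2 window, once in the second EPB41L3 window and not in the first, and it is present in 42.6% of all promoters. CACGTG, which with CATGTG is a form of the E-box and cannot match the same bases, occurred within the family only at the fourth start of EPB41L3 and is present in 6.34% of all promoters. CATGTG (9.42% of all promoters), TATAAA (10.7%) and CCAAT (32% of all promoters) had no match at any start of EPB41L3. These matches describe letters in a window and not bound sites.

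EPB41L3 rose from one of the lowest levels in the family to the middle of it. The gene (ENSG00000082397) lies at chr18:5392381-5630700 on the minus strand of GRCh38, and the reads were counted over all its annotated exons. It had 43, 50 and 82 reads in the EV libraries B1, B2 and B3, and 803, 1099 and 717 reads in the PRL3 libraries B9, B10 and B11. Scaled for library size and composition (normalized read counts), these were 52.4, 60.2 and 74.6 in EV and 827, 818 and 769 in PRL3. Every PRL3 library lay far above every EV library, and the spread within each group was small beside the gap, with the highest library 1.42 times the lowest in EV and 1.08 times in PRL3. The mean was 62.4 ± 11.3 (SD, n = 3) in EV cells and 804 ± 31.3 (SD, n = 3) in PRL3 cells, 12.9-fold higher, and the fitted log2 fold change was 3.68 (SE 0.23). In RNA from bulk cultures, a rise in every cell and a rise in some of the cells cannot be told apart, and 4sU-labelled reads on exons do not tell faster synthesis from slower loss within the pulse.

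**Figure D1:**
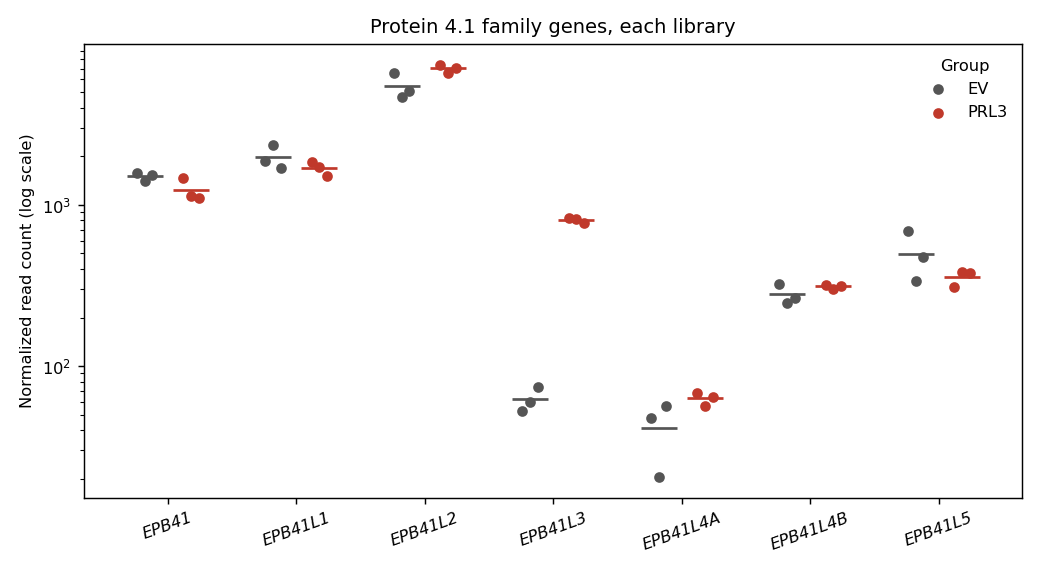
Normalized read counts (y axis, log scale) of the 7 family genes (x axis) in the 3 EV libraries (grey points) and the 3 PRL3 libraries (red points), with horizontal lines at the group means. EPB41L3 moved from 52.4 to 74.6 in EV up to 769 to 827 in PRL3, while the means of the other genes differed by less than 2-fold.

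Among the relatives that share the spectrin-actin binding domain, none passed the test in either direction with the scaling used throughout (TMM). Each adjusted p given is that of the quasi-likelihood test in edgeR, corrected by the method of Benjamini and Hochberg over all tested genes. EPB41L2 (ENSG00000079819, chr6:130839347-131063322, minus strand), the most broadly expressed of them, came closest. Its normalized read counts were 6594, 4656 and 5051 in EV and 7414, 6618 and 7108 in PRL3. The lowest PRL3 library lay just above the highest EV library, so the groups did not overlap. The log2 fold change was 0.38 (SE 0.16, 95% confidence interval 0.028 to 0.72, edgeR adjusted p = 0.0762). The two-sided exact permutation test on the normalized counts gave p = 0.1, the smallest that 3 libraries against 3 allow. EPB41L2 passed the threshold under 6 of the 17 alternatives. These were limma-voom (log2 fold change 0.39, adjusted p = 0.046), upper-quartile scaling (0.56, edgeR adjusted p = 0.00885), library size alone (0.87, edgeR adjusted p = 0.000607), a filter of at least 10 counts in every library (0.42, edgeR adjusted p = 0.0387), protein-coding genes only (0.56, edgeR adjusted p = 0.0073) and leaving out EV replicate 1 (0.54, edgeR adjusted p = 0.0103). Its log2 fold change was -0.11 when counts were scaled by all uniquely aligned reads.

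EPB41 (ENSG00000159023, chr1:28887091-29120046, plus strand), the founding member that anchors the red cell membrane skeleton, had 1572, 1415 and 1528 normalized read counts in EV and 1465, 1130 and 1098 in PRL3. The PRL3 library B9 fell inside the EV range, so the groups overlapped. The log2 fold change was -0.29 (SE 0.17, 95% confidence interval -0.65 to 0.07, edgeR adjusted p = 0.182; exact permutation p = 0.2), and it was 0.21 with library size alone. With all uniquely aligned reads as the library, EPB41 was called lower (-0.77, edgeR adjusted p = 0.00248). EPB41L1 (ENSG00000088367, chr20:36091504-36232799, plus strand), the form best known from neurons, had 1876, 2353 and 1703 normalized read counts in EV and 1852, 1719 and 1500 in PRL3. Most PRL3 libraries lay within the EV range. Its log2 fold change was -0.23 (SE 0.17, 95% confidence interval -0.59 to 0.14, edgeR adjusted p = 0.306; exact permutation p = 0.3), and it was 0.28 with library size alone. EPB41L1 was also called lower with all uniquely aligned reads (-0.71, edgeR adjusted p = 0.00703), and its value was -0.067 without EV replicate 2. A p above the threshold does not show that these levels were equal.

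The members without the spectrin-actin binding domain were also not called with TMM scaling. EPB41L5 (ENSG00000115109, chr2:120013077-120179119, plus strand) had 684, 339 and 472 normalized read counts in EV and 309, 381 and 378 in PRL3. The EV library B2 lay inside the PRL3 range and the EV spread was wide, with the highest library 2.02 times the lowest. Its log2 fold change was -0.48 (SE 0.26, 95% confidence interval -1.04 to 0.068, edgeR adjusted p = 0.146; exact permutation p = 0.3). EPB41L5 passed the threshold without EV replicate 2 (log2 fold change -0.68, edgeR adjusted p = 0.0361) and with all uniquely aligned reads (-0.96, edgeR adjusted p = 0.0069). Its log2 fold change was -0.19 without EV replicate 1 and 0.0043 with library size alone.

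EPB41L4B (ENSG00000095203, chr9:109171974-109321059, minus strand) had 323, 245 and 266 normalized read counts in EV and 319, 301 and 316 in PRL3. The groups overlapped, since the EV library B1 was the highest of all 6. The log2 fold change was 0.17 (SE 0.22, 95% confidence interval -0.32 to 0.65, edgeR adjusted p = 0.581; exact permutation p = 0.4), and it was -0.31 when scaled by all uniquely aligned reads. With library size alone EPB41L4B was called higher (0.66, edgeR adjusted p = 0.0323). EPB41L4A (ENSG00000129595, chr5:112142441-112419313, minus strand) had few reads, with 39, 17 and 62 reads in EV and 66, 76 and 60 in PRL3. Its normalized read counts were 47.5, 20.5 and 56.4 in EV and 68, 56.6 and 64.3 in PRL3. The groups did not overlap, but the lowest PRL3 library stood only a fraction of a count above the highest EV library. The log2 fold change was 0.59 with a wide 95% confidence interval of -0.45 to 1.63 (SE 0.48, edgeR adjusted p = 0.347; exact permutation p = 0.1).

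Of the 6 relatives of EPB41L3, 0 were called by edgeR with TMM scaling at an adjusted p of 0.05 in either direction, with 1 (EPB41L2) at an unadjusted p under 0.05. DESeq2 called 0 as well, also with 1 at an unadjusted p under 0.05, and limma-voom called 1. Over all 23884 genes tested, 20% were called higher and 22.7% lower in PRL3 cells, and over the 14443 protein-coding genes 15.2% were called higher and 31.6% lower. Both the calls and this background moved with the scaling. Library size alone called 2 relatives higher beside 9514 genes higher and 3078 lower in all, upper-quartile scaling called 1 higher, and all uniquely aligned reads called 3 lower beside 1952 genes higher and 8473 lower in all. Without regard to any threshold, the groups did not overlap in 2 of the 6 relatives, EPB41L2 and EPB41L4A, both higher in PRL3, against 29.7% of all tested genes higher and 26.6% lower without overlap.

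Gene length was considered because the change between the groups followed it. Across protein-coding genes the median log2 fold change was -0.64 for the 2782 genes whose genomic span was under 10 kb and 0.32 for the 681 genes of 300 kb or more, with values between them in the classes between. The 7 family genes span 141 to 277 kb, so all of them belong to the long genes. EPB41L4A is the longest at 277 kb, followed by EPB41L3 at 238 kb, EPB41 at 233 kb and EPB41L2 at 224 kb. EPB41L5 at 166 kb, EPB41L4B at 149 kb and EPB41L1 at 141 kb are shorter.

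Among the 1236 protein-coding genes with a span in this range, the log2 fold change had a median of 0.16 and quartiles of -0.22 and 0.54. In this window 22.9% of genes were called higher and 12.4% lower in PRL3 cells. EPB41L3 stood at percentile 99.7, and 3 genes had a larger log2 fold change (ADGRD1, LRP2 and STK32A, named after their values were seen). EPB41L4A at percentile 76.9, EPB41L2 at 65.2 and EPB41L4B at 50.6 lay in the upper part of the window or at its middle. EPB41L1 at percentile 24.8, EPB41 at 22.5 and EPB41L5 at 14.6 lay at its lower quartile or under it. The 6 relatives were therefore spread over the window, and those nearest to EPB41L3 in span, EPB41 and EPB41L2, had log2 fold changes of -0.29 and 0.38, whose signs depended on the scaling.

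**Figure D2:**
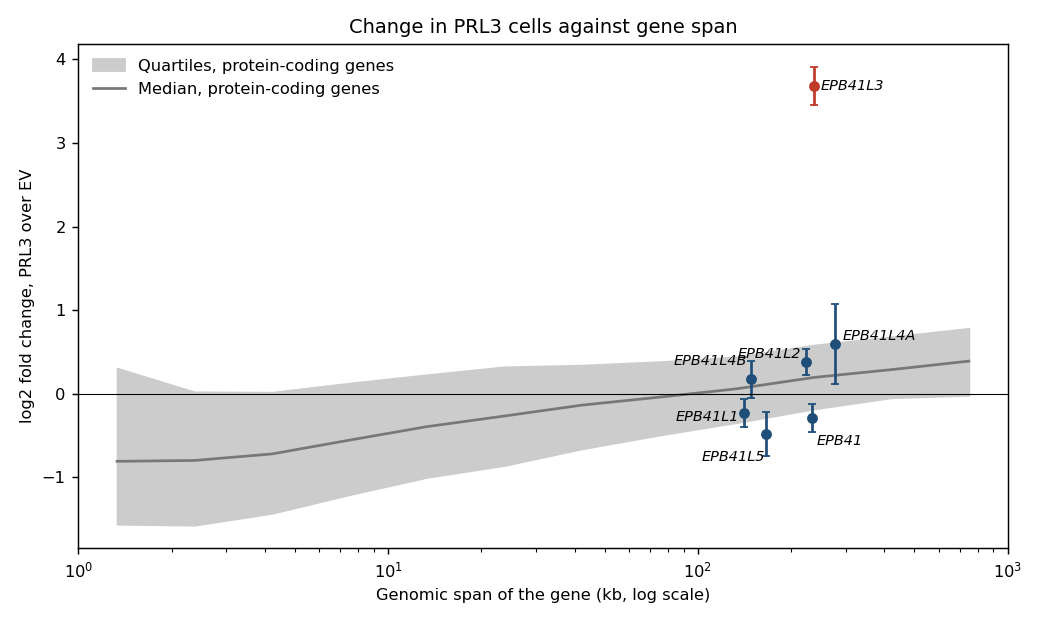
Log2 fold change of PRL3 over EV (y axis) against genomic span in kb (x axis, log scale) for the 7 family genes (points, bars are ± SE), with the median (line) and quartiles (band) of protein-coding genes in classes of span. EPB41L3 lies at 3.68 far above the band, and the other 6 lie between -0.48 and 0.59, with the sign of 5 of them depending on how counts were scaled.

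With the trend on span removed from each library, the log2 fold change of EPB41L3 was 3.43. With the trend on exonic length removed, it was 3.54. EPB41 was then called lower under both corrections, with log2 fold changes of -0.53 (edgeR adjusted p = 0.0161) and -0.54 (edgeR adjusted p = 0.0156). EPB41L5 was called lower with the span correction alone (-0.65, edgeR adjusted p = 0.0498). In the whole table, 202 of 23884 genes had a larger log2 fold change than EPB41L3, and 30 of these were protein-coding. Among the 12512 protein-coding genes whose EV mean was at least that of EPB41L3, the 1 gene with a larger value was the transfected PTP4A3. EPB41L3 was selected on its rise, so its high place here and in the span window follows from that choice.

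Levels were then compared between genes after dividing normalized read counts by the exonic length of each gene, from 7.97 kb for EPB41L4B to 20 kb for EPB41. In EV cells EPB41L2 was highest at 527 ± 99.2 normalized reads per kb (SD, n = 3), followed by EPB41L1 at 204 ± 34.8 and EPB41 at 75.3 ± 4.06. The order of EPB41L1 and EPB41 depended on the length used. With the longest transcript as the length, EPB41 (236 ± 12.7) and EPB41L1 (235 ± 40) overlapped. EPB41L5 (54.1 ± 18.9) overlapped both EPB41 (exact permutation p = 0.2) and EPB41L4B (34.8 ± 5.03, exact permutation p = 0.2), so these neighbours in the order did not differ beyond their spread. EPB41L3 at 5.11 ± 0.923 and EPB41L4A at 4.83 ± 2.18 were the lowest and overlapped each other. The level of EPB41L3 in EV cells was at percentile 6.47 of tested protein-coding genes.

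In PRL3 cells EPB41L2 (683 ± 38.9 normalized reads per kb, SD, n = 3) and EPB41L1 (175 ± 18.4) kept the first places, and EPB41L3 came next at 65.9 ± 2.57. Its libraries overlapped those of EPB41 (61.6 ± 10.2), which followed. EPB41L4B (39.2 ± 1.2) and EPB41L5 (38.7 ± 4.44) were not separable (exact permutation p = 1), and EPB41L4A was lowest at 7.34 ± 0.679. EPB41L3 had moved from rank 6 to rank 3 of 7, and its level lay at percentile 28.6 of protein-coding genes. It came to rank 4 when the longest transcript was used as the length. By that length EPB41 (193 ± 31.8) overlapped EPB41L1 (201 ± 21.1) and lay clear above EPB41L3 (116 ± 4.5). A 12.9-fold rise thus brought EPB41L3 to a level that was still below that of most protein-coding genes in these cells.

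**Figure D3:**
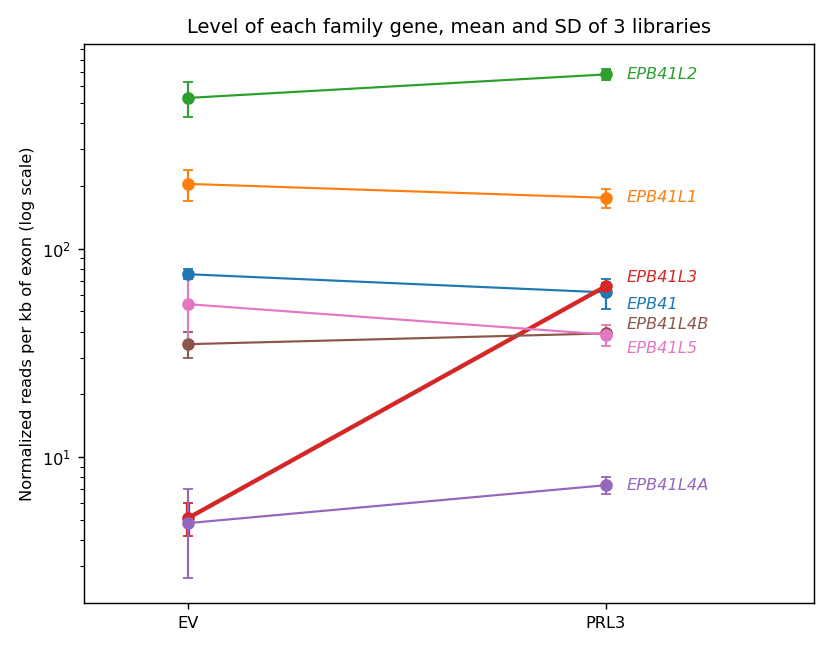
Mean level of each family gene in EV and PRL3 cells (x axis), in normalized reads per kb of exon (y axis, log scale), with bars for the SD of 3 libraries. EPB41L3 (thick red line) rises from 5.11 beside EPB41L4A to 65.9 beside EPB41, and EPB41L2 stays highest in both groups at 527 and 683.

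Summed per kb, the family gave 905 ± 113 in EV and 1070 ± 54.9 in PRL3 cells (SD, n = 3). EPB41L2 made up 57.9% ± 4.00 of this sum in EV cells and 63.8% ± 1.65 in PRL3 cells. EPB41L3 made up 0.576% ± 0.157 and 6.17% ± 0.304. The share of EPB41L1 was 22.9% ± 5.38 and 16.3% ± 1.36, and that of EPB41 was 8.37% ± 0.759 and 5.73% ± 0.653. These shares do not depend on how the libraries were scaled, because they are ratios within a library. They do depend on the length taken for each gene, here that of all its exons.

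Scaling moved all members together. The fitted log2 fold change of EPB41L3 was between 3.21 when all uniquely aligned reads were taken as the library and 4.16 with library size alone, and 3.57 to 3.83 when each library was left out in turn. The median of all tested genes moved with it, from -0.365 to 0.60 under the same 2 scalings, against 0.11 with TMM. Reads on no exon of the expected strand took 30.2%, 28.7% and 41.1% of the uniquely aligned reads in EV and 69.1%, 62.8% and 66.9% in PRL3, and the part of this in the changes of the members was not tested. Since 1 factor per library shifts every gene alike, the distance between members is fixed under such scalings and says nothing of stability.

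**Figure D4:**
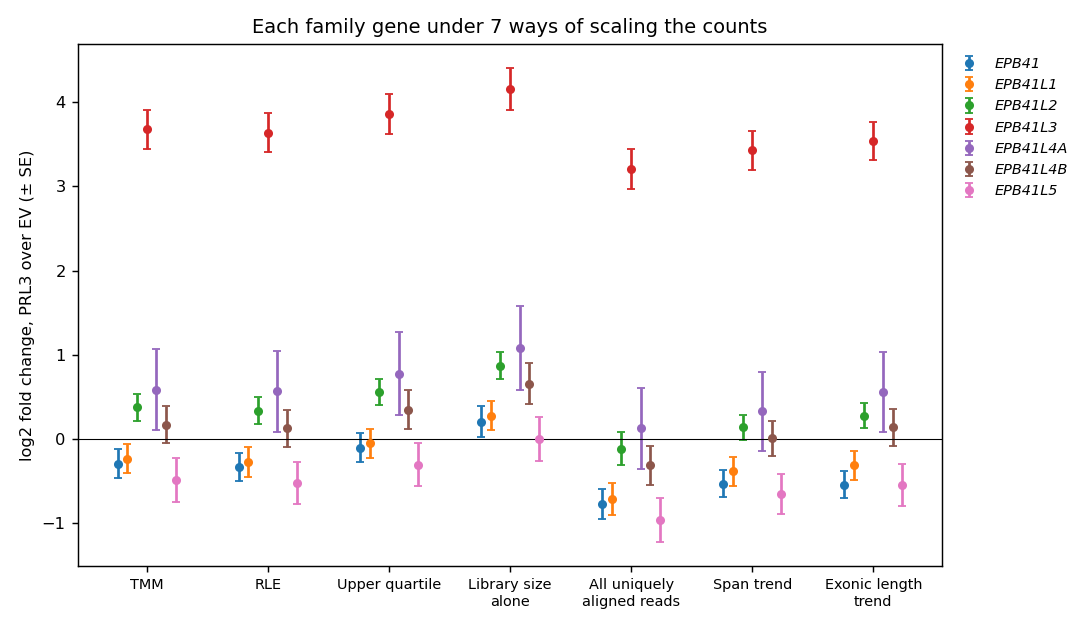
Log2 fold change of PRL3 over EV with ± SE (y axis) for the 7 family genes under 7 ways of scaling the counts (x axis). EPB41L3 stays between 3.21 and 4.16, and EPB41, EPB41L1, EPB41L2, EPB41L4B and EPB41L5 each change sign under at least 1 scaling.

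The genomic surroundings of the members were read from the annotation. EPB41L3 is overlapped by 2 lncRNA genes on the opposite strand, which share no exon with it and had at most 11 reads in any library. The nearest tested protein-coding gene at lower coordinates is ZBTB14, a zinc finger transcription factor gene at chr18:5289019-5297053 on the same strand. Its normalized read counts were 989, 817 and 820 in EV and 1798, 1784 and 1753 in PRL3. All PRL3 libraries were higher, with a log2 fold change of 1.02 (SE 0.16, edgeR adjusted p = 0.00022). On the other side, TMEM200C had 4 to 15 reads in a library and a log2 fold change of 0.16 (SE 0.88, edgeR adjusted p = 0.9). Whether the change of ZBTB14 and that of EPB41L3 are related was not tested.

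EPB41L4A shares 2200 bases of exon with EPB41L4A-AS1, an abundant lncRNA on the opposite strand that hosts the snoRNA SNORA13. The reads of EPB41L4A were 0.449% to 0.885% of those of EPB41L4A-AS1 in a library, and carry-over between the strands was not tested. EPB41L4A-AS1 rose from 5919 ± 1705 to 9900 ± 1642 normalized read counts (SD, n = 3; log2 fold change 0.74, SE 0.20, edgeR adjusted p = 0.00961), and SNORA13 had a log2 fold change of 1.12 (edgeR adjusted p = 0.00166). EPB41 shares 618 bases of exon with TMEM200B on the other strand, whose log2 fold change was -0.11 (SE 0.23, edgeR adjusted p = 0.73). A processed pseudogene inside EPB41 on that strand, ENSG00000225616, fell from 79, 44 and 13 reads to 2, 9 and 4 (log2 fold change -3.55, edgeR adjusted p = 0.00497). EPB41L5 shares 370 bases of exon with an opposite lncRNA, ENSG00000224789, which had 7, 2 and 0 reads in EV and 32, 38 and 42 in PRL3 (log2 fold change 3.30, SE 1.01, edgeR adjusted p = 0.0182). The counting used strand, so these partners were counted apart from the members.

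The protein-coding genes whose profile over the 6 libraries was most like that of EPB41L3 were sought by the root mean square distance between centred log2 CPM (counts scaled to library size). EPB41L3 was selected on its rise, so genes found this way rise in PRL3 cells by the way they were picked. The 4 closest had almost no reads in EV cells, so they passed the filter on low counts through their PRL3 libraries. BCL2A1, an anti-apoptotic BCL2 relative, lay at a distance of 0.201 and had 0, 0 and 1 reads in EV and 33, 30 and 29 in PRL3. GCOM1 (distance 0.23) had 0 reads in every EV library and 16, 31 and 18 in PRL3. CNTN5, a neuronal adhesion molecule (0.293), had 0, 0 and 3 reads against 31, 41 and 25, and GPR26, an orphan receptor (0.329), had 0, 0 and 1 against 19, 19 and 17. Their fitted log2 fold changes, 5.93 for BCL2A1, 7.31 for GCOM1, 4.69 for CNTN5 and 5.19 for GPR26, were larger than that of EPB41L3 (3.68). Their SE were 1.11 to 1.51. The distance used a prior count of 2, which shrinks changes that start from almost no reads.

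The fifth, ARHGAP30, which encodes a GTPase-activating protein, lay at 0.349 and was better covered, with 31, 37 and 43 reads in EV and 310, 554 and 317 in PRL3. All its PRL3 libraries were above all its EV libraries, which its selection by profile made likely. Its log2 fold change was 3.14 (SE 0.28). The family genes were not among the genes close to EPB41L3. The nearest of them, EPB41L4A, lay at a distance of 1.54 with 2256 of 14442 protein-coding genes closer, and the farthest, EPB41L5, at 2.08 with 9269 closer.

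The membrane skeleton list held 19 genes for spectrins, ankyrins, adducins, tropomodulins and related proteins, of which 16 were tested. In PRL3 cells 3 were higher and 3 were lower at an adjusted p of 0.05 (18.8% each way). Of all tested genes 20% were higher and 22.7% lower, and of protein-coding genes 15.2% and 31.6%. The median log2 fold change was -0.11 against 0.11 over all tested genes, noncoding ones included. Among protein-coding genes alone, medians ran from -0.64 for spans under 10 kb to 0.32 at 300 kb or more. The value of 0.11 is therefore no close background for this list or the following ones, and the gap does not show a shift. SPTB, a beta spectrin best known from red cells, had 211, 208 and 241 normalized read counts in EV and 740, 726 and 646 in PRL3. All PRL3 libraries lay well above the EV libraries, and the log2 fold change was 1.68 (SE 0.20, edgeR adjusted p = 3.27e-05). TMOD3, which caps the pointed ends of actin filaments, and SPTBN1, the main beta spectrin outside red cells, were also higher, with log2 fold changes of 0.64 and 0.43. The lower genes included ADD1, an adducin that joins spectrin to actin (log2 fold change -0.74), and SPTAN1, the alpha spectrin of most cells (-0.64). This balance depended on the scaling, with 8 higher and 0 lower under library size alone and 1 higher and 6 lower under all uniquely aligned reads.

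Other genes with a FERM domain were counted in a list of 29, of which 27 were tested. In PRL3 cells 8 were higher (29.6%) and 6 were lower (22.2%). Of all tested genes 20% were higher and 22.7% lower, and of protein-coding genes 15.2% and 31.6%. The median log2 fold change was 0.18 against 0.11 over all tested genes, noncoding ones included. MYLIP, a ubiquitin ligase that acts on the LDL receptor, had the largest rise of the list, with 1941, 1713 and 2691 normalized read counts in EV and 4182, 4684 and 4091 in PRL3. The groups did not overlap, and the log2 fold change was 1.03 (SE 0.18, edgeR adjusted p = 0.000503). FERMT3, the kindlin of blood cells, and FRMPD4, a postsynaptic scaffold protein, had log2 fold changes of 0.96 and 0.83. FRMPD4 had overlapping groups, with 326, 203 and 472 normalized read counts in EV and 677, 641 and 468 in PRL3 (edgeR adjusted p = 0.0293). TLN1, the talin that links integrins to actin, fell most, from 20071 ± 2872 to 8502 ± 761 normalized read counts (SD, n = 3; log2 fold change -1.24, SE 0.16, edgeR adjusted p = 5.4e-05). EZR and RDX, which join membrane proteins to actin, had log2 fold changes of -0.84 and -0.69. RDX had overlapping groups, with 4696, 2548 and 2102 normalized read counts in EV and 1848, 1831 and 2109 in PRL3 (edgeR adjusted p = 0.0353). Under library size alone the list held 16 higher and 1 lower, and under all uniquely aligned reads 1 higher and 12 lower.

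Of 25 genes for proteins that bind protein 4.1 family members, 21 were tested. In PRL3 cells 1 was higher (4.76%) and 8 were lower (38.1%). The median log2 fold change of the list was -0.20 against 0.11 over all tested genes, noncoding ones included, which is no close background for protein-coding genes. Of all tested protein-coding genes, 15.2% were higher and 31.6% lower. The higher gene was CADM1, the adhesion molecule bound by EPB41L3. It had 3140, 2918 and 2489 normalized read counts in EV and 3823, 3951 and 4108 in PRL3. The groups did not overlap, and the log2 fold change was 0.48 (SE 0.15, edgeR adjusted p = 0.0192). Protein-coding genes of 300 kb or more, as CADM1 is, had a median of 0.32, and 30.2% were called higher. No partner was called higher with the trend on span or exonic length removed, at an adjusted p of 0.01, or with all uniquely aligned reads. The same held without EV replicate 3, PRL3 replicate 10 or PRL3 replicate 11, whereas other settings called up to 6 higher. CADM4, of the same adhesion family, had 8842, 11214 and 7101 in EV and 1593, 2246 and 1812 in PRL3. All its PRL3 libraries were far below its EV libraries, with a log2 fold change of -2.26 (SE 0.20, edgeR adjusted p = 9.47e-06).

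PRMT5, an arginine methyltransferase that EPB41L3 binds, fell from 7961 ± 946 to 2331 ± 109 normalized read counts (SD, n = 3; log2 fold change -1.77, SE 0.15, edgeR adjusted p = 8.62e-06). GYPC, the glycophorin that anchors EPB41 in the red cell membrane, had a log2 fold change of -1.68 (SE 0.22, edgeR adjusted p = 6.18e-05). PRMT3, the other methyltransferase partner of EPB41L3, had a log2 fold change of 0.23 (SE 0.17, edgeR adjusted p = 0.307), and CADM2 had 1.77 on few reads (SE 0.80, edgeR adjusted p = 0.092). The 3 genes that fell most in this list span 17.5 kb (CADM4), 8.88 kb (PRMT5) and 40.5 kb (GYPC), whereas CADM1 spans 336 kb. These genes were picked for their large changes, so they do not show a trend with span over the list. With the trend on span removed from each library, 0 genes of the list were called higher and 9 lower. The part of span in the change of each gene was not tested. Under library size alone 6 of the list were higher and 4 lower, and under all uniquely aligned reads 0 were higher and 11 lower.

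The labels were checked in the whole series. The libraries held 36532207 to 57952035 reads on genes. PTP4A3 had 217 ± 59.4 normalized read counts in EV and 24387 ± 3796 in PRL3 (SD, n = 3; transfected and endogenous copies counted together). Of 10 markers of melanocytes and neural crest, 6 were tested, among them SOX10 at 9882 to 23575 reads and MITF at 1004 to 2412, while MLANA, TYR, DCT and TYRP1 had at most 20 reads in any library. Their summed normalized read counts were 29938 to 39230 in EV and 15524 to 18916 in PRL3. Of the tested markers, MITF had a log2 fold change of 0.36 (edgeR adjusted p = 0.0738) and PMEL -0.33 (edgeR adjusted p = 0.664). SOX10 (-0.85), S100B (-1.38), NES (-1.70) and SOX9 (-2.08) were called lower. For fibroblast markers (7 of 7 tested) the sums were 984 to 1277 in EV and 761 to 838 in PRL3, and for epithelial markers (2 of 5 tested, mostly KRT14) 1100 to 1235 and 388 to 636. Endothelial markers (2 of 4 tested) summed to 301 to 451 and 408 to 495, and blood markers (2 of 7 tested) to 29.1 to 47.5 and 50.4 to 86.8. The part of these marker levels in the changes of the family was not tested.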

How the data were processed

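Counts per Ensembl gene were deposited by the authors as whole numbers without normalization. Per the labels, 4sU-labelled RNA was biotinylated, captured on streptavidin and depleted of ribosomal RNA, and strand-specific paired-end libraries were sequenced. The submitters' processing notes name FastQC 0.11.3, STAR 2.5.1b, HTSeq 0.6.1 and GRCh38, and reads were counted over exons of the expected strand. Reads on no exon of that strand or ambiguous between genes were left out of the counts. Of the uniquely aligned reads, 28.7% to 41.1% fell on no such exon in EV and 62.8% to 69.1% in PRL3 libraries, and 1.67% to 5.01% were ambiguous.

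Symbols, biotypes, spans and exonic lengths (union of exons) came from GENCODE 44, which matched 57532 of 58243 identifiers. PRL3 was compared with EV in R 4.3.3 with edgeR 4.0.16 (TMM, filterByExpr, 23884 genes kept, quasi-likelihood test, Benjamini-Hochberg adjustment over all kept genes, threshold 0.05). For normalized read counts, each count was divided by its library's effective size and multiplied by the mean of these sizes. Profiles were compared as log2 CPM with a prior count of 2. Exact permutation tests were two-sided. No pair of libraries was alike within sampling noise. The model was tested on simulated data.

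The family and the gene lists were chosen with earlier results of these data known. Genes were named by rule: all members, PTP4A3, the 3 largest called changes each way in each list, the 5 profiles closest to EPB41L3, and tested genes that overlap a member or lie next to EPB41L3. Of these, 1 gene is not reported here. PRMT3 and CADM2 and the genes named by span were added after their values were seen. Alternatives were RLE, upper-quartile, library-size and all-aligned-read scaling, DESeq2 1.42.0, limma-voom (limma 3.58.1), other filters, protein-coding genes only, a threshold of 0.01, lowess offsets on span or exonic length, the longest transcript as the length, and leaving out each library.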

Additional observations from a re-analysis of the deposited data

Results flagged for a closer look

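Reads placed uniquely in the genome but on no exon annotated on the expected strand, which enter none of the gene counts, made up 66.3% ± 3.18 (SD, n = 3) of uniquely aligned reads in PRL3 libraries against 33.3% ± 6.75 (SD, n = 3) in the EV control libraries (two-sided exact permutation p = 0.1, the smallest possible). It is given here because it is a signal outside the measurement used for the family genes. The reads of introns of EPB41L3 and its relatives are not in the files by gene, so its part in their values was not tested.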

How the results depend on the processing

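The log2 fold change of EPB41L3 kept its direction under all 17 alternatives. Reversed directions were EPB41 (0.21), EPB41L1 (0.28) and EPB41L5 (0.0043) with library size alone, and EPB41L2 (-0.11) and EPB41L4B (-0.31) with all uniquely aligned reads. EPB41L4A kept its direction and was called under none. Counts that moved follow, and the causes were not tested. Members other than EPB41L3 called higher numbered 1 with upper-quartile scaling, at least 10 counts in every library, protein-coding genes only or limma-voom, and 2 with library size alone. Members called lower numbered 3 with all uniquely aligned reads, 2 with the span offset and 1 with the exonic length offset. With library size alone, all genes gave 9514 higher and 3078 lower, the membrane skeleton list 8 and 0, the FERM list 16 and 1 and the partner list 6 and 4. With all uniquely aligned reads, these were 1952 and 8473, 1 and 6, and 1 and 12, with 0 partners higher. Partners called higher numbered 3 with upper-quartile scaling, 2 with at least 10 counts or limma-voom, 5 with protein-coding genes only and 0 with either length offset or an adjusted p of 0.01. The span offset gave 5 membrane skeleton genes lower and 3 FERM genes higher. At an adjusted p of 0.01, 3 FERM genes and 2719 genes in all were higher. Leaving out each library in turn gave 0 to 1 members higher (1 without EV replicate 1) and 0 to 1 lower (1 without EV replicate 2), 2 to 4 skeleton genes higher and 3 to 4 lower, 4 to 9 FERM genes higher (4 without PRL3 replicate 10) and 3 to 6 lower (3 without PRL3 replicate 11), 0 to 2 partners higher and 6 to 9 lower, and over all genes 3200 to 5940 higher and 4306 to 5869 called lower. No paired analysis was possible because EV and PRL3 libraries carry different replicate numbers. The smallest exact p with 3 libraries a group is 0.1, and EPB41L4A, at 17 to 76 reads, was measured least precisely.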
